A study of Mus musculus with 8 samples.

Results

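Genes for 9 nucleases, the enzymes that cut DNA or RNA, were followed in mouse esophageal epithelial cells sorted by their content of autophagic vesicles. The genes are Dnase1, Dnase1l1, Dnase1l2, Dnase1l3, Dnase2a, Trex1, Trex2, Endou and Endog, which are 9 of the 55276 gene symbols in the count table. They were chosen by name, with the high-against-low contrast already known and because Dnase1l3 is among its strongest rises. Their differences between the fractions are therefore a description and carry no test here. Of the 9, 8 had counts and could be fitted, and Trex1 had 0 counts in every library.

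The esophageal epithelium came from 4 C57BL6 mice of 14 to 15 weeks, 2 female (Female1, Female2) and 2 male (Male1, Male2), with no genetic change or drug treatment named in the labels. Live cells, negative for DAPI and positive for integrin-b1, were sorted by Cyto-ID, a dye that stains autophagic vesicles, into Cyto-ID Low and Cyto-ID High. Each animal gave 1 library of each fraction, so there are 4 Low and 4 High bulk RNA libraries. The labels call the sorted cells basal cells and give their cell type as squamous cells, and they do not say how many cells entered each library.

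Keratinocytes of stratified epithelia move from a basal layer to the surface, and on the way they build a cornified envelope and break down organelles and DNA. DNASE1L2 and the lysosomal enzyme DNase II are known for removing DNA from cornifying cells of skin, hair and tongue, and TREX2 is a 3' exonuclease found mainly in keratinocytes. DNASE1L3 is a secreted enzyme that cuts chromatin and is known best from macrophages and dendritic cells. ENDOU is an endoribonuclease, which cuts RNA, so the set holds more than DNases.

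Of the 9 genes, 6 were higher in the High fraction: Dnase1l3, Endou, Dnase1l2, Trex2, Endog and Dnase2a, by 21.4-fold down to 1.72-fold. Dnase1 was lower in High, and Dnase1l1 did not pass the threshold, an adjusted p of 0.05 in edgeR's quasi-likelihood test. Of all 17344 genes tested, 48.7% passed that threshold, 23.4% as higher and 25.3% as lower in High. The count of members is given beside that background and nothing is read from it, since the contrast was used to choose them. The CPM (a gene's count relative to its library's TMM-scaled total) of the same 6 genes in High lay above all Low values, and those of Dnase1 lay below. Over all tested genes the 2 fractions did not overlap for 48.6%, with 23.6% higher and 24.9% lower in High. The members' median log2 fold change was 1.88 over the 8 fitted, against -0.09 over all tested genes. In bulk libraries, fewer cells of a type and less RNA per cell cannot be told apart.

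**Figure D1:**
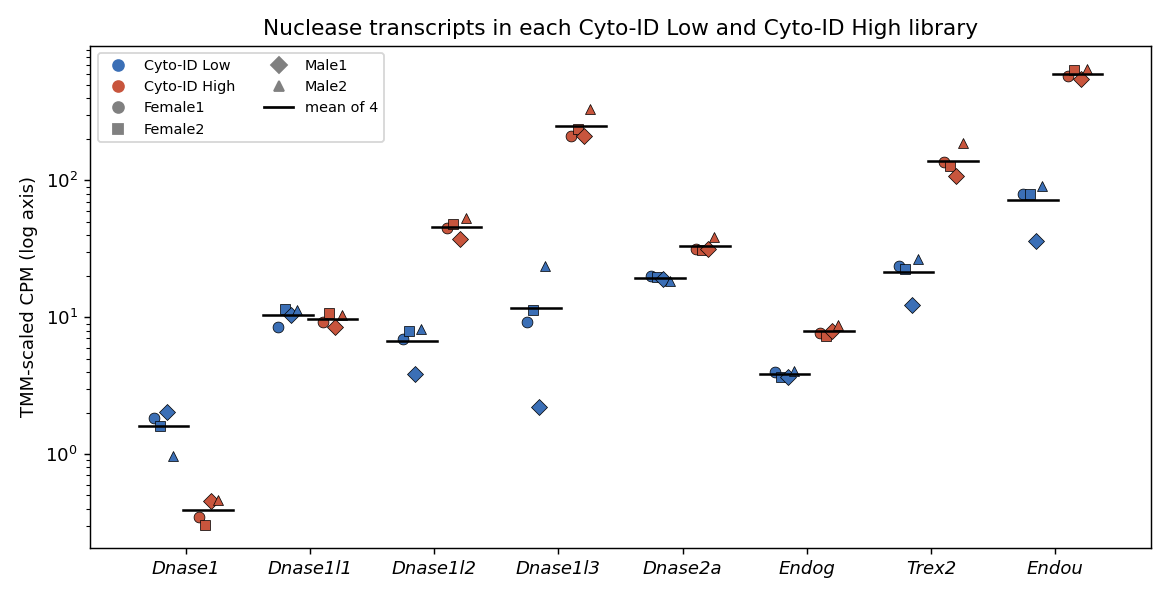
Levels of the 8 nuclease genes with counts, in CPM on a log axis, with 1 point per library (blue for the 4 Low, red for the 4 High, the shape giving the animal) and a line at each mean. High points lie above all Low points for 6 genes and below them for Dnase1, and those of Dnase1l1 overlap.

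The labelled fractions were checked against cell type markers. Summed CPM of 10 basal keratinocyte genes ran from 22032 to 26255 in Low and from 2882 to 4577 in High, while 20 genes of terminal differentiation summed to between 11077 and 29605 in Low and between 154158 and 262176 in High. Of the basal genes 10 fell in High, from Col17a1 (log2 fold change -3.86) and Itgb4 (-3.62) to Trp63 (-2.06) and Sox2 (-1.63). Of the differentiation genes 19 rose, all but the cornulin gene Crnn (-0.28, SE 0.49). Over all tested genes, 25.3% were called lower and 23.4% higher in High. The label of basal cells thus meets low basal marker levels in High. Summed CPM of 13 leukocyte genes was 94.2 to 140 in Low and 31.5 to 142 in High. For 8 fibroblast genes it was 333 to 525 and 233 to 563, for 7 endothelial genes 25.0 to 48.9 and 19.9 to 47.2, and for 8 muscle genes 35.4 to 57.7 and 4.99 to 51.9. Single genes of these lists moved: Mmp2 rose (log2 fold change 2.15), and Dcn (-2.87) and Acta2 (-1.54) fell. High Male2 had the lowest of the leukocyte, fibroblast, endothelial and muscle sums and the highest differentiation sum. Gastric genes summed to at most 1.44 CPM except in Female2, with 19.9 in Low and 118 in High. No defining marker of these lists was at 0 in every library of a fraction. Libraries held 26285150 to 29301054 counts, and TMM factors ran from 0.679 in High Male2 to 1.30 in Low Female2.

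Dnase1l3 (chromosome 14, 7964533 to 7994573, minus strand, GRCm38) had the largest rise of the set and the 20th largest rise among the 17344 tested genes. It stood at 9.27, 11.3, 2.21 and 23.7 CPM in Low Female1, Female2, Male1 and Male2, and at 213, 237, 210 and 333 CPM in the High libraries of the same animals. Low Male1 was the lowest and Low Male2 the highest of its fraction, 10.7-fold apart, while the High libraries spanned 1.59-fold. The lowest High library was 8.85-fold above the highest Low library. Mean levels were 11.6 ± 8.9 CPM in Low and 248 ± 58 CPM in High (SD, n = 4 each), and the fitted log2 fold change was 4.42 (SE 0.59). Without Low Male2 it was 5.27, without Low Male1 it was 4.04, and without High Male2, the library that stood apart in marker sums, it was 4.28. Within animals, High exceeded Low by 4.51, 4.38, 6.53 and 3.81 in log2 CPM, in the order Female1, Female2, Male1 and Male2. Macrophages and dendritic cells also make DNASE1L3. Of 11 leukocyte markers tested, 1 rose (the macrophage glycoprotein gene Cd68, log2 fold change 2.13), 2 fell (H2-Ab1, -1.41, and Cd207, -2.24) and 8 did not pass. That is 27.3% called, against 48.7% of all tested genes. The summed leukocyte level was 142, 55.6, 102 and 31.5 CPM in High Female1, Female2, Male1 and Male2, and its part in the Dnase1l3 level was not tested. Its exons overlap no other annotated gene.

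Dnase1l2 (chromosome 17, 24440081 to 24443105, minus strand) and Trex2 (chromosome X, 73433705 to 73435344, minus strand) encode the DNase and the 3' exonuclease most closely tied to keratinocytes. Their promoters are shown because, of the 4 members that varied most alike (Dnase1l2, Dnase1l3, Trex2 and Endou), these 2 have one in the reference table. The 250 bases before each RefSeq start (GRCm38.p6) are printed, with capitals marking the letters CCACCC (a KLF motif) or CCGGAAG (an ETS motif) on either strand:
Dnase1l2, chr17:24443102-24443351, minus strand: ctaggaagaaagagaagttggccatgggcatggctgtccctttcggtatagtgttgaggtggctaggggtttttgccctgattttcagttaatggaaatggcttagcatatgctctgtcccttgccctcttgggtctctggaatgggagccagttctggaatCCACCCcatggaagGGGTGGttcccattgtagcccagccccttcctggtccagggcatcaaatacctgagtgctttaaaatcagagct
Trex2, chrX:73435344-73435593, minus strand: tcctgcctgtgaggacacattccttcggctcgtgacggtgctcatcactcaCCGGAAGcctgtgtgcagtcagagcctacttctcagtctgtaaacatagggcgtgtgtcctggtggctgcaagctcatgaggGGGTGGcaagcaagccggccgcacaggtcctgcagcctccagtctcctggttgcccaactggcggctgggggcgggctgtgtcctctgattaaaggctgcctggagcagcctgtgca

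In the Dnase1l2 sequence CCACCC lies at -88 to -83 from the start base and, on the other strand as GGGTGG, at -74 to -69. In the Trex2 sequence CCGGAAG lies at -199 to -193 and GGGTGG at -117 to -112. Windows from 250 bases before to 50 after a start were searched on both strands for these letters and for TGANTCA (AP-1), AACCNGGTT (GRHL), TATAAA and CCAAT, and no match overlapped another. Of 32851 RefSeq windows, 31.5% held CCACCC, 8.9% CCGGAAG, 7.8% TGANTCA, 0.3% AACCNGGTT, 13.6% TATAAA and 37.4% CCAAT. A window was found for 7 of the 9 members, and none for Dnase1l3 and Endou. CCACCC was in at least 1 window of each of the 7, so the letters do not separate genes that rose from Dnase1 or Dnase1l1.

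Dnase1l2 stood at 6.89, 8.00, 3.85 and 8.27 CPM in Low and at 45.2, 48.1, 37.6 and 53.0 CPM in High, in the order Female1, Female2, Male1 and Male2. Male1 was lowest and Male2 highest in both fractions, and the groups lay at least 4.55-fold apart. Mean levels were 6.75 ± 2.02 CPM in Low and 46.0 ± 6.4 CPM in High, and the fitted difference was 2.77 in log2 (SE 0.24). Trex2 stood at 23.8, 22.4, 12.2 and 26.7 CPM in Low and at 136, 127, 107 and 188 CPM in High, in the same order. Again Male1 was lowest and Male2 highest in each fraction, and the lowest High library was 4.01-fold above the highest Low library. Means were 21.3 ± 6.3 and 139 ± 35 CPM, and the log2 fold change was 2.71 (SE 0.28). The ratio of Trex2 to Dnase1l2, both per kb of exon, stayed within 6.42 to 7.90 in Low and 6.02 to 8.13 in High.

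Endou (chromosome 15, 97711015 to 97731339, minus strand) was the most abundant member in both fractions. Its CPM was 79.4, 79.8, 36.1 and 90.3 in Low and 574, 638, 548 and 654 in High. Low Male1 was less than the other Low libraries, and the lowest High value was 6.07-fold the highest Low value. The mean went from 71.4 ± 24.1 to 603 ± 51 CPM, with a log2 fold change of 3.09 (SE 0.28). Endou made up 40.2% to 51.7% of the members' summed CPM in Low and 50.8% to 58.0% in High. The sum itself was 89.7 to 184 CPM in Low and 950 to 1286 CPM in High. Dnase1l3 gained on Endou: the ratio of their levels per kb was 0.0326 to 0.140 in Low and 0.197 to 0.271 in High, and the fractions did not overlap.

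Dnase2a (chromosome 8, 84908560 to 84922915, plus strand) encodes the acid DNase II of lysosomes. It was at 20.0, 19.6, 19.2 and 18.4 CPM in Low and 31.7, 31.1, 31.5 and 38.6 CPM in High, in the order Female1, Female2, Male1 and Male2. Low libraries lay close together, and High Male2 stood above the other High libraries. The log2 fold change was 0.78 (SE 0.13), and 0.70 without High Male2. Scaling by total counts in place of TMM left 0.22, which no longer passed the threshold. Under it the median over all tested genes went from -0.09 to -0.64. A change of scaling shifts all genes about alike, so the distance of Dnase2a from that median cannot decide between the scalings. Endog (chromosome 2, 30171493 to 30174069, plus strand), the mitochondrial endonuclease G, was at 3.98, 3.68, 3.63 and 4.04 CPM in Low and 7.68, 7.36, 8.01 and 8.75 CPM in High. Its 4 values in each fraction were close together, and its log2 fold change was 1.05 (SE 0.16). Exons of Mast1 on the other strand cover 30.0% of the Dnase2a exon bases, and exons of Spout1 cover 35.7% of those of Endog. The strand setting of the counting is not given in the sources used here. Of 31 protein-coding genes with all exon bases shared with the other strand only, 30 (96.8%) had no count, so reads in shared bases may be missing from these levels.

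Dnase1 (chromosome 16, 4036942 to 4040024, plus strand), the secreted DNase I, moved the other way at very low levels. It had 60, 58, 65 and 32 counts in Low and 9, 7, 12 and 9 counts in High. These are 1.85, 1.59, 2.02 and 0.966 CPM in Low and 0.347, 0.305, 0.458 and 0.463 CPM in High. Low Male2 was lowest of the Low libraries and still 2.09-fold above the highest High library. Mean levels were 1.61 ± 0.46 and 0.393 ± 0.079 CPM, so Dnase1 was 4.08-fold lower in High (log2 fold change -2.03, SE 0.36). Genes on the other strand cover 18.1% of its exon bases. Dnase1l1 (chromosome X, 74273217 to 74282337, minus strand) encodes a DNase I-like protein anchored in membranes. It stood at 8.56, 11.4, 10.5 and 11.4 CPM in Low and 9.22, 10.7, 8.43 and 10.4 CPM in High. The fractions overlapped, and the log2 fold change was -0.11 (SE 0.16). Scaling by total counts gave -0.68, which passed the threshold as lower, close to the median of all genes under that scaling.

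Trex1 (chromosome 9, 109057933 to 109059734, minus strand) encodes the widely expressed 3' exonuclease that degrades DNA in the cytosol. It had 0 counts in all 8 libraries, and 3 counts would be 0.0825 to 0.154 CPM. All 1147 of its exon bases are also exon bases of Atrip on the same strand. Among 115 protein-coding genes whose exons lie wholly within those of a gene on the same strand, 73 (63.5%) had no count, against 2883 of 15147 (19.0%) that share no exon base. Atrip itself, which encodes a partner of the ATR kinase, had 421 to 548 counts in Low and 180 to 228 in High. The 0 of Trex1 therefore gives no level for the gene in these cells.

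**Figure D2:**
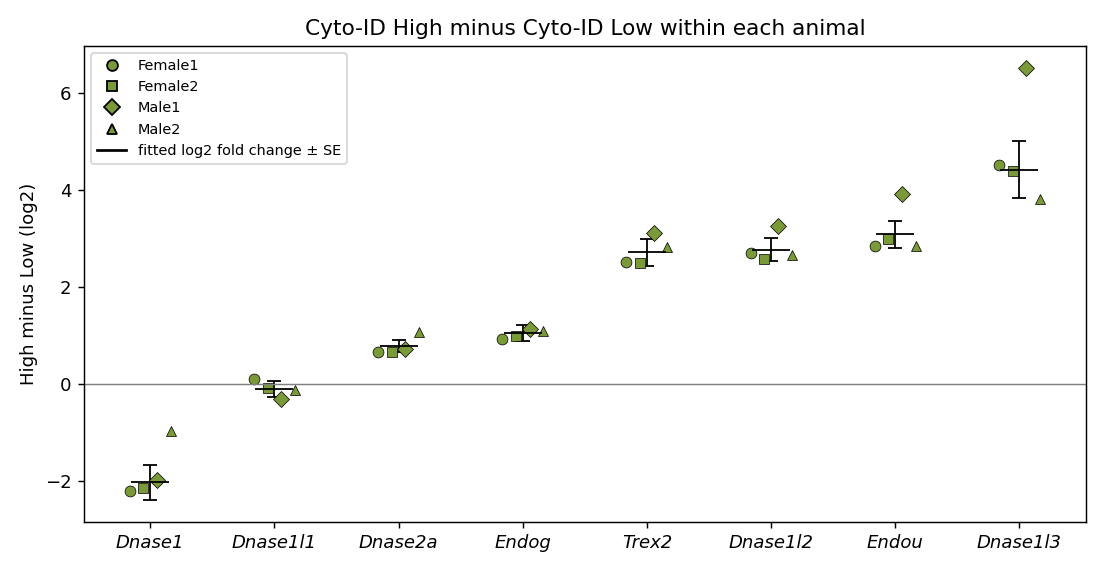
Difference between High and Low of each nuclease gene within each animal, in log2 CPM, with 1 point per animal and the fitted log2 fold change with its SE as a line with bars. Of the genes, 6 lie above 0 in all 4 animals, Dnase1 lies below 0 in all 4, and Male1 has the largest difference for Dnase1l3, at 6.53. The share of all tested genes with the same sign in all 4 animals was not counted.

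Levels of different members were compared per kb of exon. In Low the order was Endou (26.01 ± 8.8 CPM per kb), Trex2 (20.9 ± 6.2), Dnase1l1 (4.92 ± 0.63), Endog (3.61 ± 0.20), Dnase2a (3.58 ± 0.13), Dnase1l2 (2.90 ± 0.87), Dnase1l3 (2.26 ± 1.74) and Dnase1 (0.522 ± 0.150; SD, n = 4 for each). The ranges of Endou and Trex2 overlapped, as did those of neighbours from Endog down to Dnase1l3, and Dnase1l3 in Low Male1 fell within the range of Dnase1. In High the order was Endou (220 ± 18 CPM per kb), Trex2 (137 ± 34), Dnase1l3 (48.2 ± 11.2), Dnase1l2 (19.8 ± 2.8), Endog (7.48 ± 0.56), Dnase2a (6.17 ± 0.67), Dnase1l1 (4.57 ± 0.50) and Dnase1 (0.128 ± 0.026). There the ranges of neighbours over the 4 libraries lay apart except for Endog and Dnase2a. Compared within each library, Endou was above Trex2 in all 8, and Endog was above Dnase2a in all 4 High and in 2 of the 4 Low libraries. By its mean Dnase1l3 was in the 7th place in Low and the 3rd in High, but in single Low libraries it was 7th in both females, 8th in Male1 and 4th in Male2. Divided by only the exon bases that no other gene shares, the same counts gave Endog 5.61 and Dnase2a 5.11 CPM per kb in Low. These values hold only if no read in shared bases was counted, which is not known. Under that assumption both means lie above that of Dnase1l1.

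Within a fraction the members did not vary alike. As deviations from the fraction mean in log2 CPM, Dnase1l3 stood at 0.10, 0.39, -1.94 and 1.45 in Low and at -0.20, -0.04, -0.22 and 0.45 in High, in the order Female1, Female2, Male1 and Male2. The mean of the 20 differentiation genes stood at 0.02, 0.14, -0.76 and 0.59 in Low and at -0.13, 0.03, -0.16 and 0.26 in High. Both were lowest in Male1 and highest in Male2 in each fraction. Single genes of the list, such as Lor (52.4 to 596 CPM) and Dsg1a (10.7 to 97.0 CPM), also spanned a wide range in Low. Over the 8 deviations, Pearson's r with that mean was 0.99 for Dnase1l3, 0.94 for Dnase1l2, 0.94 for Endou, 0.91 for Trex2, 0.57 for Endog and 0.34 for Dnase1l1, with a positive sign within each fraction. For Dnase1 and Dnase2a the sign differed between the fractions, so no pooled value is given: both were lowest in Male2 among the Low libraries (-0.65 and -0.07) and highest in Male2 among the High libraries (0.22 and 0.22). Pairs among Dnase1l2, Dnase1l3, Trex2 and Endou had r of 0.89 to 0.96, also with a positive sign in each fraction. With the mean of the basal genes the sign differed between the fractions for 7 of the 8 members, all but Dnase1l1, so no pooled value is given. Over the 4 High libraries alone, r with the basal mean was 0.93 for Trex2, 0.74 for Dnase1l3, 0.70 for Dnase1l2 and 0.46 for Endou. With the differentiation mean it was 0.89, 0.98, 0.88 and 0.92 in the same order. Among these genes only Trex2 had the larger r with the basal mean. These values describe 8 libraries that share animals and the pull of Low Male1 and Low Male2, and they carry no test.

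**Figure D3:**
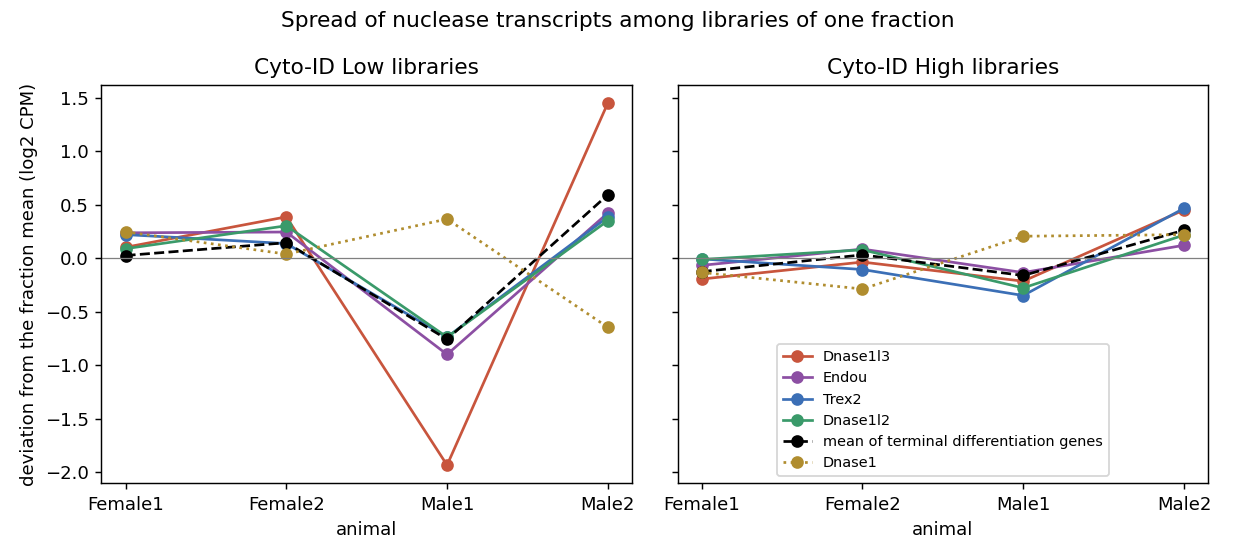
Deviation of each library from the mean of its fraction, in log2 CPM, for 5 nuclease genes and for the mean of 20 terminal differentiation genes, by animal, with Low on the left and High on the right. In Low, Dnase1l3 runs from -1.94 in Male1 to 1.45 in Male2, the differentiation mean runs the same way from -0.76 to 0.59, and Dnase1 runs the opposite way, whereas in High Dnase1 is also highest in Male2.

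The genes most like Dnase1l3 were sought among 10006 genes with a mean of at least 5 CPM. By levels over the 8 libraries these were Slc10a6, Pglyrp3, Pla2g2f, Alox12b and Dkkl1, each with r of 0.998. By deviations from the fraction means they were Ephx3 (r 0.992), Slc10a6 (0.991), Arhgap40 (0.990), Acer1 (0.988) and Bglap3 (0.987), so Slc10a6 was in both lists. Endou was most like Crabp2, Krtdap and Spink5 by levels (0.998 to 0.999) and like Krtdap, Crabp2 and Sdr9c7 by deviations (0.994, 0.988 and 0.984). Trex2 was most like Prss8, Rhof and Sprr1a by levels (0.998 to 0.999) and like Fdps, Prss8 and Bglap2 by deviations (0.993, 0.988 and 0.985). Dnase1l2 was most like Crabp2, Spns2 and Endou by levels (0.998 to 0.999) and like Spns2, Slc26a9 and Atp6v1c2 by deviations (0.984, 0.980 and 0.978). Levels of any gene with a steady difference between the fractions give a high r here, and the deviations rest mostly on Low Male1 and Low Male2.

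Sex was not used to choose the members and was tested on the sum of each animal's Low and High counts. Dnase1l3 was at 103 and 101 CPM in the females and 95.9 and 139 CPM in the males, with a male-minus-female log2 difference of 0.20 (SE 0.21). The X-linked Dnase1l1 and Trex2 differed by 0.01 (SE 0.23) and 0.02 (SE 0.24). Across the 8 members the differences ran from -0.15 to 0.20, with adjusted p of 1.00 for each in edgeR's quasi-likelihood test and unadjusted p of 0.375 to 0.974. Of 19687 genes tested, 4 (0.0203%) differed by sex after adjustment and 284 (1.44%) at an unadjusted p of 0.05. The interaction of sex and fraction asked whether the High-minus-Low difference depended on sex. It ran from -0.21 for Dnase1l1 to 0.70 (SE 0.75) for Dnase1, and was -0.06 (SE 1.11) for Dnase1l3 and 0.42 (SE 0.54) for Trex2. The adjusted p was 1.00 for each in the same edgeR test, and unadjusted p ran from 0.378 to 0.955. This fit had no term for the animal, so the pairing of an animal's Low and High libraries was not used. Of the 17344 genes, 0 (0%) passed after adjustment and 19 (0.11%) had an unadjusted p under 0.05. With 2 animals of each sex the standard errors leave room for sizeable differences: in simulated counts the interaction test recovered 10% of log2 changes of 1.5 and 74% of those of 3, and the test of sex recovered 64% and 90%.

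Other genes of DNA and RNA breakdown were set beside the members. Of 25 further DNases and their partners that could be tested, 4 rose, 11 fell and 10 did not pass, with a median log2 fold change of -0.41. That is 60% called, against 48.7% of all tested genes. With the animal as a block, Aifm1 and Mre11a also passed as lower, which made 13 lower. Endod1, an endonuclease domain protein, stood at 91.4, 70.0, 103 and 105 CPM in Low and 307, 428, 370 and 451 CPM in High (log2 fold change 2.08, SE 0.18). Dffa, which encodes the inhibitor and chaperone of the apoptotic DNase DFF40, stood at 20.0, 28.5, 19.9 and 26.2 CPM in Low and 52.1, 81.0, 58.8 and 89.8 CPM in High (1.57, SE 0.21). The gene for DFF40 itself, Dffb, named after its values were seen, fell from 5.12 ± 0.45 to 2.15 ± 0.60 CPM (-1.24, SE 0.24). Inhibitor and enzyme thus moved in opposite directions. The other rises were Dclre1c (1.20), the nuclease Artemis of DNA end joining, and Tatdn2 (0.81), which lost its call under total-count scaling (0.22). Exo1 (-2.02, SE 0.51), an exonuclease of mismatch repair, and Gen1 (-1.84, SE 0.30), which resolves recombination junctions, fell most.

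The SET complex holds DNases in an inactive form until it is cleaved. Among 5 genes listed for it Anp32a (1.21) and Nme1 (0.67) rose and Hmgb2 (-1.17), Set (-0.80) and Apex1 (-0.56) fell, with a median of -0.56. That is 100% called, against 48.7% of all tested genes, 23.4% as higher and 25.3% as lower. Apex1 is also counted among the 11 lower genes of the further DNases. Nme1 lost its call under total-count scaling (0.13), and Apex1, which shares 61.7% of its exon bases with another gene, missed the threshold without both Male1 libraries (-0.54). Of 14 genes of cytosolic DNA sensing 3 rose, 2 fell and 9 did not pass, with a median of -0.16. That is 35.7% called, against the 48.7% over all genes. With the animal as a block, Irf3 and Rnaseh2c also passed as lower, which made 4 lower and 7 not passed. The dNTP hydrolase gene Samhd1 rose from 28.9 ± 4.3 to 79.7 ± 12.6 CPM (1.47), and Cgas, the DNA sensor, from 7.94 ± 1.89 to 15.9 ± 5.0 CPM (1.01). Under total-count scaling Cgas (0.44) lost its call. Banf1 (0.37), a DNA-binding protein of the nuclear envelope, passed as higher but turned to -0.20 under that scaling. It also missed the threshold, at 0.27 to 0.38, without Low Female1, High Female1, High Female2, Low Male1 or High Male2, each left out in turn. Rnaseh2b (-1.15) and Ikbke (-0.57) fell; Ikbke was -0.46 without Low Male1 and -0.49 without High Female2, and passed in neither.

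Of the genes for lysosomal breakdown of nucleic acids, 5 could be tested. Pld3, a lysosomal exonuclease of single-stranded DNA, stood at 22.0, 28.3, 22.0 and 35.6 CPM in Low and 106, 118, 107 and 179 CPM in High (2.23, SE 0.22), so its rise was larger than that of Dnase2a on the log2 scale. Rnaset2b (-2.34) and Acp2 (-0.71) fell, 2 did not pass (60% called, with 48.7% over all genes), and the median was -0.46. Acp2 missed the threshold without both Female2 or both Male2 libraries, at -0.58 each time. With the animal as a block Slc29a3 also passed as lower. Among 9 RNases and related genes 4 rose, 3 fell and 2 did not pass (77.8% called, with 48.7% over all genes), with a median of -0.30. Rnase1, a secreted RNase, stood at 1.08, 3.22, 0.528 and 6.13 CPM in Low and 34.1, 53.9, 37.8 and 69.7 CPM in High (4.17, SE 0.62). Its log2 fold change was 5.01 without Low Male2 and 3.78 without Low Male1. As with Dnase1l3, Low Male1 was its lowest and Low Male2 its highest Low library. Rnh1, the cytosolic RNase inhibitor, rose from 271 ± 40 to 734 ± 135 CPM (1.44). Zc3h12a (1.03) rose as well, but it lost its call under total-count scaling, at 0.42, and without High Female2, at 0.79. Rnaset2b, Rnase4 (-1.13) and Ang (-0.56) fell, and Rnase4 and Ang share exon bases with each other. Ang missed the threshold without a filter on low counts (-0.60) and without both Male2 (-0.50) or both Male1 libraries (-0.55). With the animal as a block Drosha also passed as lower.

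Of the 11 genes of the nuclear envelope and lamina, 4 rose, 4 fell and 3 did not pass, with a median of -0.07. That is 72.7% called, and all tested genes likewise went both ways, 23.4% higher and 25.3% lower. Sun2 (1.13), Emd (1.08), Syne1 (0.91) and Lbr (0.62) rose; under total-count scaling Syne1 (0.38) and Lbr (0.05) lost their call. Tmpo (-1.82), Lmnb1 (-1.77), Syne2 (-1.03) and Lmnb2 (-0.80) fell. Without both Male1 libraries Lmnb2 (-0.67) and Syne1 (0.75) missed the threshold. Lbr missed it without Low Female2 (0.57), High Female2 (0.47), High Male1 (0.59) or Low Male2 (0.52), and Syne2 without Low Female1 (-0.76). Lmnb1, for lamin B1, was at 139, 119, 141 and 120 CPM in Low and 33.6, 34.3, 34.9 and 50.5 CPM in High. Lmna, for lamins A and C, was at 1246 ± 218 CPM in Low and 1199 ± 362 CPM in High (-0.07, SE 0.21). The 20 differentiation genes had a median of 3.07, with the highest values for Dsg1a (4.19, SE 0.59) and Lor (4.12, SE 0.64) and the lowest past the threshold for Klf4 (1.62) and Ivl (1.48). Dnase1l3 (4.42, SE 0.59) lay within error of both, and Endou (3.09) lay near the median. Without Low Male2 the values were 5.03 for Dsg1a, 5.06 for Lor and 5.27 for Dnase1l3.

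**Figure D4:**
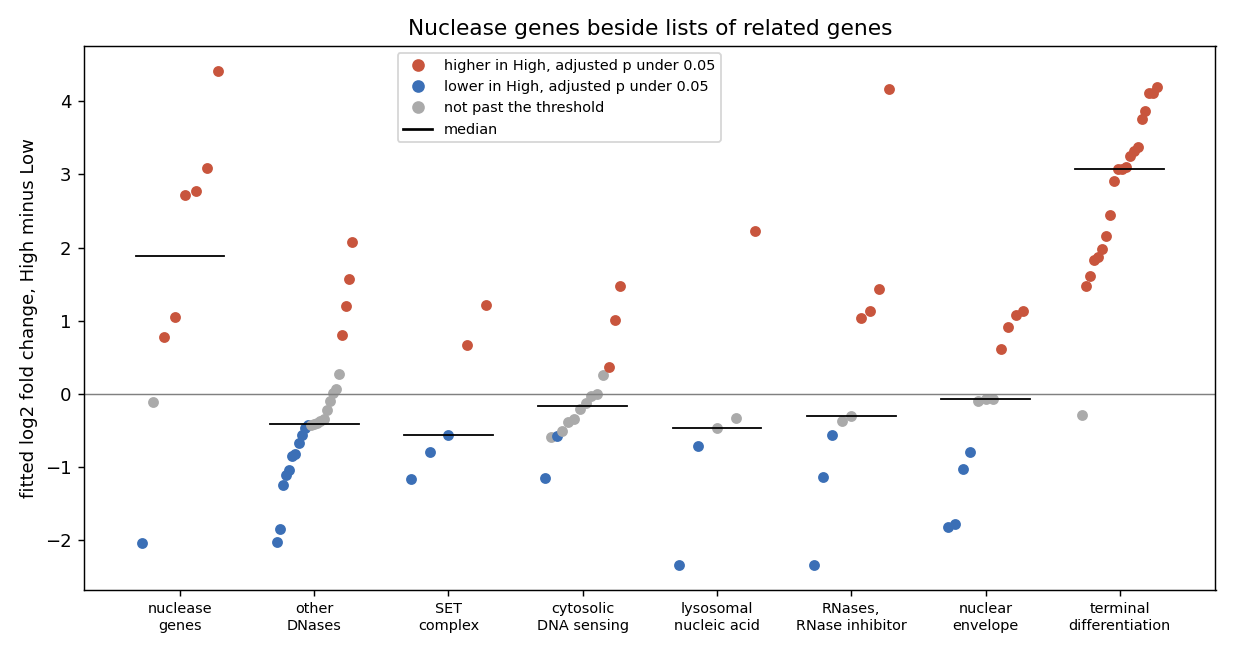
Fitted log2 fold change, High minus Low, of the nuclease genes and of the genes of 7 lists, with 1 point per gene coloured by its call and a line at each median. The nuclease genes run from -2.03 to 4.42 with a median of 1.88, the other DNases have a median of -0.41, and the differentiation genes one of 3.07.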

How the data were processed

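The deposited table holds a raw count for each gene symbol in each of 8 libraries, as its whole numbers and unequal totals show. Per the submitters' processing notes, STAR 2.7.3, DESeq2 and the GRCm38 build were used, with no role given. The counting tool and its strand setting are not given in the sources used here. Libraries were tied to animals by the animal names in the sample titles, and animals are the replicates. Deviations of an animal's Low and High libraries from their fraction means had r of 0.43 (Female1), 0.32 (Female2), -0.02 (Male1) and 0.28 (Male2).

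Counts were filtered with filterByExpr, scaled by TMM and fitted with edgeR 4.0.16 (quasi-likelihood, sex as covariate, Benjamini-Hochberg over all genes tested, threshold 0.05) in R 4.3.3. Every p is from that test. Alternatives were limma 3.58.1 (voom), DESeq2 1.42.0, other scalings and filters, no covariate, a replicate block by animal, and libraries left out. CPM per kb used merged exons of GENCODE M21. Fold changes and log2 values come from these fits, and log2 CPM used a prior count of 2. In counts simulated from the libraries, the High-against-Low test recovered 69% of log2 changes of 1.5 and 94% of those of 3.

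The members and lists were chosen with earlier results of these data known. From each list the 2 largest and 2 smallest log2 fold changes past the threshold were named, with the genes that account for counts of 5 or fewer; 1 such gene is not reported here. Unnamed gene models (Gm and Rik symbols) were left out of the search for like genes, which listed the 5 highest r for Dnase1l3 and 3 for Endou, Trex2 and Dnase1l2.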

Additional observations from a re-analysis of the deposited data

Results flagged for a closer look

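Of 30 groups of 4 libraries examined, 3 had 1 library far from the others, its gap to the nearest, as a share of the group's range, exceeding Dixon's 95% critical value. Chance alone flags about 1 in 20 groups. Dnase2a was at 38.6 CPM in High Male2, against 31.1 to 31.7 CPM in the other High libraries. The summed level of gastric genes was 19.9 CPM in Low Female2 and 118 CPM in High Female2, against at most 1.44 CPM elsewhere. Leaving out both Female2 libraries gave a log2 fold change of 4.43 for Dnase1l3 and 3.13 for Endou.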

How the results depend on the processing

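The number of genes differing between High and Low was 8440, from 8066 to 10708 under the alternatives and from 7269 to 8106 with 1 library left out. The number of members past the threshold was 7 under each alternative except a minimum of 10 counts in every library, which left Dnase1 out and 6 passing. With the replicate block by animal 9336 genes and 7 members passed, no member's call changed, and 6 genes of the lists gained a call. Scaling by total counts changed 2 members' calls, Dnase1l1 (-0.68) and Dnase2a (0.22), turned Banf1 to -0.20, and lowered the share of called genes that rose from 48.0% to 20.5%. Leaving out both libraries of Male1, Male2 or Female2, chosen after seeing the data as was the length of unshared exon bases, gave 6563, 7279 and 7570 genes. Dnase1l3 ran from 3.84 to 5.14 over the alternatives, here including the runs without both libraries of an animal. With 1 library left out it ran from 4.04 to 5.27. The number of genes differing by sex was 4, with 15 without a filter, 0 in High alone and 1 in Low alone. The interaction had 0 genes in every alternative run. The cause of these shifts was not tested. Depth limits Dnase1, with 7 to 12 counts in High, and the exon overlap limits Trex1, Endog and Dnase2a.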
